A study of Mus musculus with 38 samples.

Results

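Kidney RNA was sequenced from 8 healthy BALB/c mice, 4 given a single intravenous injection of recombinant FGF23 and 4 given vehicle, among the 38 libraries of the series. The 8 libraries were chosen by their column names in the count table, Ad9, Ad10, Ad11 and Ad12 for healthy mice with FGF23 and Ad1, Ad2, Ad3 and Ad4 for healthy mice with vehicle. All 8 mice were wild-type females that received intravenous saline at 8 weeks of age, as the controls of Adriamycin nephropathy, and were euthanized at 10 weeks. The FGF23 group received 1 µg of recombinant human FGF23 in phosphate-buffered saline with 0.1% bovine serum albumin, the vehicle group received that carrier alone, and kidneys were taken 24 h later. RNA came from a fragment of the renal pars intermedia of each mouse, so each library was bulk tissue from 1 animal. The comparison asked what a single short exposure to FGF23 did to the transcriptome of a kidney without disease.

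FGF23 is a bone hormone that binds FGF receptors together with the co-receptor alpha-Klotho on renal tubule cells and signals through the mitogen-activated protein kinase (MAPK) cascade. In the proximal tubule it withdraws sodium-phosphate cotransporters from the brush border, which causes phosphate loss in urine. It also represses the 1-alpha-hydroxylase gene Cyp27b1, which makes active vitamin D, and induces the 24-hydroxylase gene Cyp24a1, which degrades it.

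Total counts per library ranged from 20396181 to 27583911 in vehicle mice and from 18568224 to 24955389 in FGF23 mice, and mitochondrial genes took 8.71% to 9.81% of them. Neither total counts (p = 0.4) nor the mitochondrial share (p = 0.6) differed between the groups in an exact two-sided permutation test, whose smallest possible p was 0.0286. Kidney markers were high in all 8 libraries. The glucose transporter gene Slc5a2 of the proximal tubule was at 529 to 618 CPM (read counts scaled to the library size) with vehicle and 486 to 681 CPM with FGF23, and the uromodulin gene Umod of the thick ascending limb at 3894 to 4676 CPM with vehicle and 2977 to 5215 CPM with FGF23. The 6 podocyte markers summed to 623 to 691 CPM with vehicle and 595 to 751 CPM with FGF23. Xist had 12938 to 20942 raw counts and 4 Y-linked genes had 0 to 2, which fits the labelled sex. Every pair of libraries of 1 group differed by more than counting noise (chi-square per degree of freedom of at least 6.31). Mouse transcripts of Fgf23 itself had 0 counts in all 8 kidneys, which allows up to 0.162 CPM in the shallowest library, the level of 3 counts and a limit that covers counting error only. The labels call the mice biological replicates. The p-values of single genes in this comparison measure the spread between animals of the same group. That spread was estimated over all 16 BALB/c libraries, Adriamycin mice included.

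Markers of fat, medulla and urothelium differed among mice, and not evenly between the groups. The 6 measured adipocyte markers summed to 123, 1.83, 50.03 and 2.07 CPM in Ad1 to Ad4 and to 481, 559, 38.8 and 0.141 CPM in Ad9 to Ad12. Fat genes were therefore high in Ad9 and Ad10, intermediate in Ad1, Ad3 and Ad11, and almost absent in Ad2, Ad4 and Ad12. Slc14a2, which encodes a urea transporter of the inner medullary collecting duct and thin limb, had 1435, 1303, 553 and 1026 raw counts with vehicle and 1, 1, 22 and 2024 with FGF23. Slc14a2 was thus nearly absent from Ad9, Ad10 and Ad11 and highest in Ad12. The 5 markers of inner medulla and thin limb together summed to 219 to 328 CPM with vehicle and 86.2 to 359 CPM with FGF23. The 5 thick ascending limb markers summed to 7168, 6020.2, 8429.7 and 10849 CPM in Ad9 to Ad12, against 8011 to 9556 CPM with vehicle. Urothelial genes were highest in Ad10, with 6.54 CPM of the uroplakin gene Upk3a, and near 0 in Ad3, Ad9, Ad11 and Ad12. In bulk tissue, fewer cells of a type and less RNA per cell cannot be told apart.

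**Figure D1:**
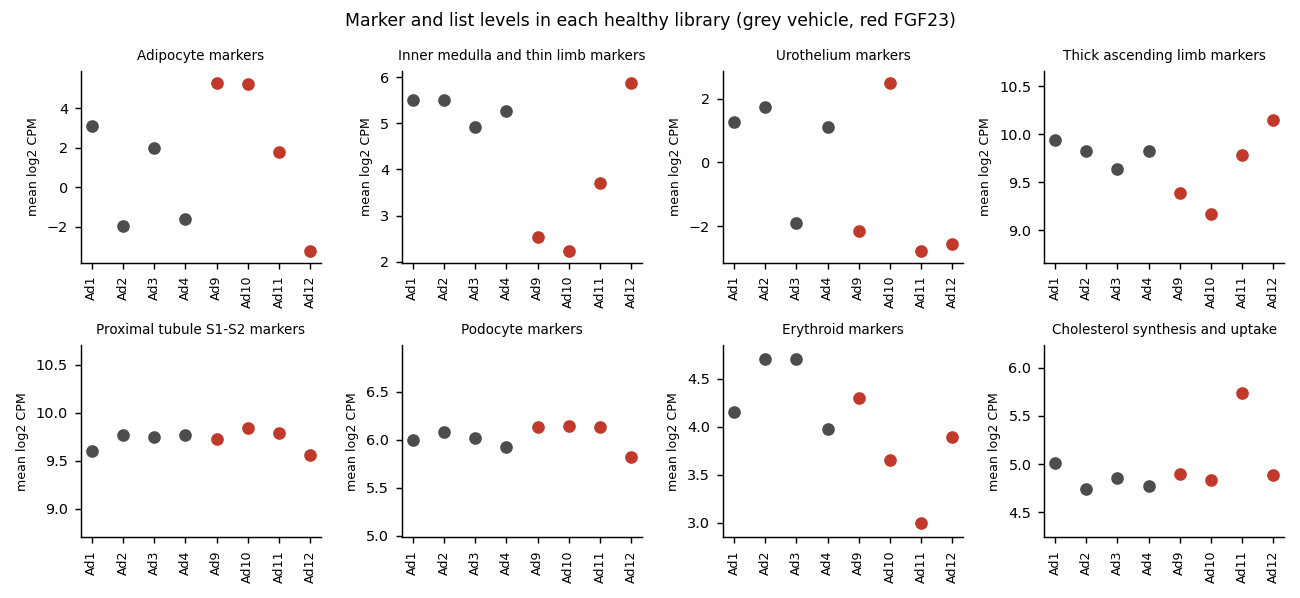
Mean log2 CPM of the genes of 8 lists (vertical axes, log2 scale) in each healthy library (horizontal axes; grey points vehicle, red points FGF23). Adipocyte markers are high in Ad9 and Ad10, inner medulla markers are low in Ad9, Ad10 and Ad11, and cholesterol genes are high in Ad11, while proximal tubule and podocyte markers stay within 1 log2 unit.

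These libraries set the main axes of variation. The first principal component of the 8 libraries held 34.5% of the variance, placed Ad9 (31.9) and Ad12 (-27.6) at its ends, and was led by Slc14a2, Car3, Cfd and Adipoq. On the second component, with 17.9%, Ad11 stood alone at -31.9. Treatment groups therefore did not separate on the first component, since Ad12 lay beyond all 4 vehicle mice and Ad9, Ad10 and Ad11 lay on the other side.

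After a single injection of FGF23, no gene passed the adjusted threshold: edgeR's quasi-likelihood test called 0 of 16020 genes (0%), with Id4 the closest at an adjusted p of 0.155. Taken without adjustment, p lay below 0.05 for 585 genes that were higher with FGF23 (3.65%) and 487 that were lower (3.04%). These shares are the background for the counts in every gene list below. All 4 FGF23 mice lay above all 4 vehicle mice for 258 genes (1.61%) and below them for 245 (1.53%). DESeq2, the tool named in the study's methods, called 16 genes, with 563 higher and 467 lower at an unadjusted p below 0.05. Among its 16 genes were Id4, Ccnd1, Nabp1, Gm16010, Wdfy3, Acot3, Zmat3, Hacl1, Acaca, Pomt1, Uri1, Rbm15, Sf3b2, Slc44a2 and Marc1, of which Sf3b2, a splicing factor gene, was named after its values were seen. The study adjusted its p-values over its contrasts combined, whereas here they were adjusted over this contrast alone. Its discussion states that healthy mice showed no transcriptional change 24 h after treatment. Without Ad9 and Ad10, the mice with the highest adipocyte markers, edgeR again called 0 genes, with 798 higher and 706 lower at an unadjusted p below 0.05. Without Ad12, the FGF23 mouse with the highest inner medulla markers, it called 4 genes: Id4, Trim63, Acaca and Cd82. The last was also named after its values were seen. The unadjusted counts without Ad12 were 911 higher and 1011 lower. Slc14a2 was nearly absent from all FGF23 mice left in that fit, so treatment and inner medulla content cannot be told apart in it.

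The 95% interval of the log2 fold change lay within ±0.5 for 11132 genes (69.5%) and within ±1 for 14607 (91.2%). Among genes at 100 CPM and over, 99.6% had intervals within ±1, against 53.6% of genes under 1 CPM, so weakly expressed genes were poorly bounded. The median standard error was 0.0985 on the log2 scale. Estimates beyond ±1 were seen for 113 genes, and the adipocyte markers were among them.

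**Figure D2:**
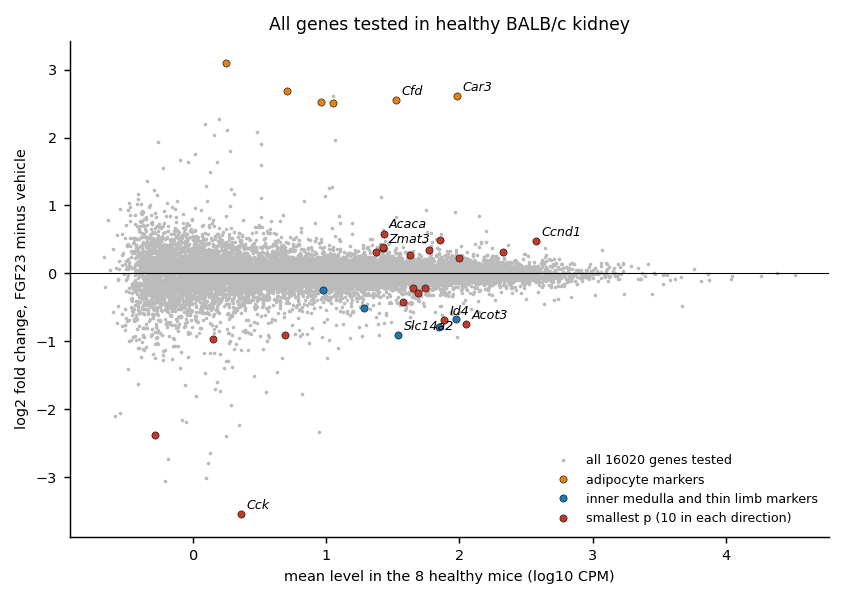
Log2 fold change of FGF23 minus vehicle (vertical axis) against the mean level in the 8 healthy mice in log10 CPM (horizontal axis) for the 16020 genes tested. Adipocyte markers lie above 2, inner medulla markers lie between -0.91 and -0.24, and the genes with the smallest p, such as Id4 at -0.69 and Ccnd1 at 0.47, lie close to the bulk of genes.

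No receptor gene for FGF23 was called, and most were tightly bounded. Kl, which encodes the alpha-Klotho co-receptor (chr5:150952607-150993817, GRCm38), was at 623, 714, 679 and 651 CPM with vehicle and 835, 688, 815 and 617 CPM with FGF23. Ad9 and Ad11 lay above the vehicle range, Ad10 within it and Ad12 below it. The log2 fold change was 0.15 (95% interval -0.09 to 0.39, adjusted p = 0.851 in edgeR's test), and -0.01 with the inner medulla marker score as a term. Fgfr1, the receptor most often paired with Klotho, was at 78.2 to 84.7 CPM with vehicle and 72.6 to 89.9 CPM with FGF23, a log2 fold change of -0.02 (interval -0.16 to 0.11). Fgfr2, Fgfr3, Fgfr4 and the decoy receptor gene Fgfrl1 had estimates of -0.19, -0.08, -0.05 and -0.10. None of the 6 genes tested reached an unadjusted p below 0.05, and the median was -0.07 beside 0.00 over all genes. For 5 of the 6, Fgfr2 being the exception, the interval lay within ±0.5. Klb, the beta-Klotho gene, had 4 to 22 raw counts per library and was not tested.

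**Figure D3:**
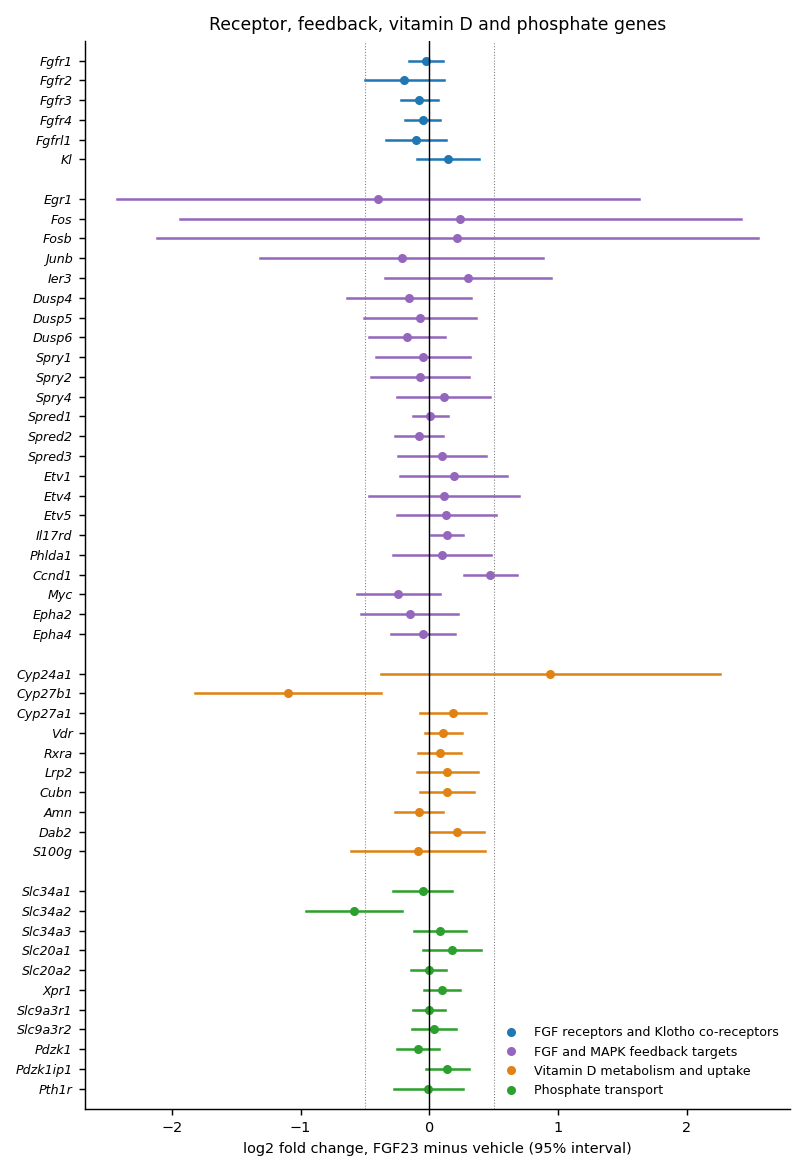
Log2 fold change of FGF23 minus vehicle with its 95% interval (horizontal axis) for each tested gene of 4 lists (vertical axis, one colour per list); dotted lines mark ±0.5. Intervals of Cyp27b1, Slc34a2, Ccnd1, Il17rd and Dab2 exclude 0, those of Il17rd and Dab2 only just. Receptor and most phosphate genes lie close to 0, and the immediate-early genes Egr1, Fos and Fosb have intervals wider than 4 log2 units.

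Of the genes that report FGF receptor and MAPK activity, few differed between the groups at 24 h. Dusp6, a phosphatase gene induced by ERK signaling that feeds back on it, was at 60.2, 54.2, 55.6 and 69.1 CPM with vehicle and 40.5, 61.3, 44.4 and 65.7 CPM with FGF23. Ad9 and Ad11 lay below all vehicle mice, and the other two lay within their range (log2 fold change -0.17, interval -0.47 to 0.12). The Sprouty genes Spry1, Spry2 and Spry4, inhibitors of receptor tyrosine kinase signaling, had log2 fold changes of -0.05, -0.07 and 0.11. Those of the related Spred1, Spred2 and Spred3 were 0.01, -0.08 and 0.10. The ETS factor genes Etv1, Etv4 and Etv5, classical FGF targets, were at 0.19, 0.11 and 0.13. Dusp4, Dusp5, Phlda1, Ier3, Myc, Epha2 and Epha4 had estimates of -0.16, -0.07, 0.10, 0.30, -0.24, -0.15 and -0.05 on the log2 scale. Of the 23 feedback genes tested, 2 were higher, Ccnd1 and Il17rd, and 0 lower at an unadjusted p below 0.05. The shares over all genes were 3.65% and 3.04%, and the median of the 23 was 0.01. The interval lay within ±0.5 for 10 of the 23 and within ±1 for 19, so the remaining 4 were poorly bounded. Il17rd, also called Sef, an inhibitor of FGF signaling, was at 14.6, 16.4, 14.7 and 14.6 CPM with vehicle and 16.4, 17, 15.9 and 17.2 CPM with FGF23, where the vehicle mouse Ad2 reached the FGF23 range (log2 fold change 0.14, interval 0.01 to 0.26).

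Ccnd1, the cyclin D1 gene that drives entry into S phase (ENSMUSG00000070348, chr7:144929931-144939925), had the smallest p of the feedback genes. It measured 283, 352, 291 and 327 CPM with vehicle and 510.5, 372, 451 and 409 CPM with FGF23. The groups did not overlap, with Ad10 lowest of the FGF23 mice just above Ad2. The log2 fold change was 0.47 (interval 0.27 to 0.68), and its adjusted p was 0.439 by edgeR and 0.0173 by DESeq2. With each healthy mouse left out in turn it stayed between 0.39 and 0.55. The 19 cell cycle genes listed had a median of 0.08, and only Cdk1 reached an unadjusted p below 0.05, at 0.931 to 1.65 CPM with vehicle and 1.55 to 2.18 CPM with FGF23.

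**Figure D4:**
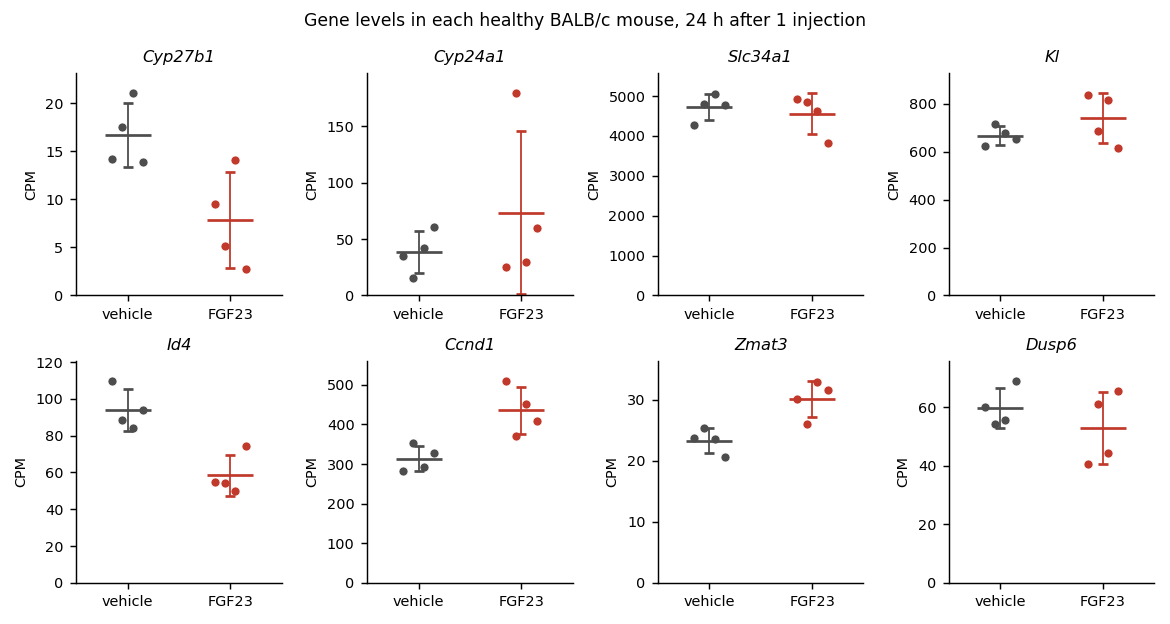
CPM of 8 genes (vertical axes, from 0) in each healthy mouse, with the mean and SD of each group of 4 (vehicle grey, FGF23 red). Id4, Ccnd1 and Zmat3 do not overlap between groups, Cyp27b1 overlaps in 1 mouse, Ad11, and the mean of Cyp24a1 with FGF23 is set by Ad10 at 179 CPM.

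Immediate-early genes, which are transcribed within minutes of a stimulus, were the feedback genes with the widest spread. Egr1 was at 9.30, 26.7, 63.8 and 120.1 CPM in Ad1 to Ad4 and 6.44, 34.1, 47.9 and 78.6 CPM in Ad9 to Ad12. The lowest and highest of the 8 mice differed 18.7-fold for Egr1 and 21.1-fold for Fos, with both groups covering nearly the same range. In each of the 4 groups of the BALB/c experiment, Adriamycin mice included, Egr1, Fos, Junb and the antiproliferative gene Btg2 were lowest in the mouse with the lowest column number and highest in the mouse with the highest. Btg2, Ier2, Nr4a1 and Zfp36, an mRNA decay factor gene, were named here after their values were seen. For Zfp36 the whole order was that of the column numbers in 3 of the 4 groups, and for Dusp1, a MAPK phosphatase gene, in 2. Of 3 further genes of this kind, Ier2 and Nr4a1 had that order in 3 groups each, and Atf3 in 0, at 0.980 to 1.43 CPM with vehicle and 1.03 to 1.84 CPM with FGF23. What the number stood for in the laboratory is not given in the sources used here. Dusp1 was at 64.9, 87.9, 166 and 182 CPM with vehicle and 25.7, 44.8, 58.6 and 131 CPM with FGF23, a log2 fold change of -0.94 (interval -1.86 to -0.02, adjusted p = 0.738 in edgeR's test). Both groups overlapped, with Ad12 inside the vehicle range and Ad9, Ad10 and Ad11 below it. Without Ad9 and Ad10, which have the lowest column numbers of the FGF23 group, the estimate was -0.40. With the rank of the column number within the group as a term, it was -1.02.

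**Figure D5:**
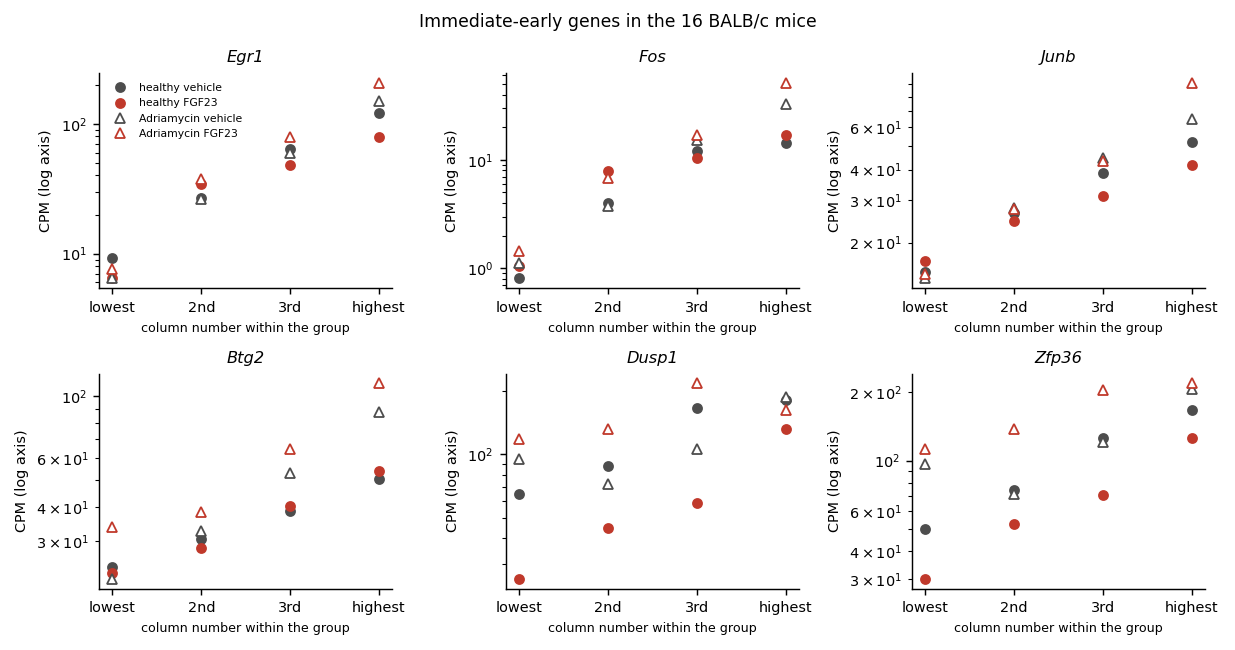
CPM on a log axis of 6 immediate-early genes (vertical axes) in the 16 BALB/c mice, placed by the rank of the column number within the group (horizontal axes; circles healthy, triangles Adriamycin, grey vehicle, red FGF23). All 4 groups run from low to high in the same order for Egr1, Fos, Junb and Btg2, and both healthy groups do for Dusp1 and Zfp36.

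Dusp1, Btg2, Fos, Junb and Zfp36 all had the order of Egr1 in both healthy groups. The promoters of Dusp1 and Btg2 are shown because each holds 1 full cyclic AMP response element, TGACGTCA, in capitals below. They are RefSeq sequences of GRCm38.p6 on the minus strand, from 250 bases before to 50 bases after the start site, written from 5′ to 3′.
Dusp1, chr17:26508423-26508722: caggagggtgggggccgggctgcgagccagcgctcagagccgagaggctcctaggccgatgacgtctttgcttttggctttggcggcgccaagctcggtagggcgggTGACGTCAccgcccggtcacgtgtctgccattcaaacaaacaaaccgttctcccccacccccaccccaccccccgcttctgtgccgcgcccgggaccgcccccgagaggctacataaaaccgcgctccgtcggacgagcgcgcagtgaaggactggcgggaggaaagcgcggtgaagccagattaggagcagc
Btg2, chr1:134079106-134079405: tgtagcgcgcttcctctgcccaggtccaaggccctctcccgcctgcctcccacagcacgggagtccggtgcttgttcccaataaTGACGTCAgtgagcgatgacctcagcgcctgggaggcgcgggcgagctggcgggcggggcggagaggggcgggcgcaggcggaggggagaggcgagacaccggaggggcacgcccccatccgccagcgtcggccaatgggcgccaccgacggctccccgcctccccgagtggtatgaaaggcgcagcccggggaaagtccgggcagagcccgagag
The element begins at -143 in Dusp1 and at -166 in Btg2, counted from the start site. It reads the same on both strands, and 588 of 32851 promoters of this length hold it (1.79%). The windows of Fos, Junb and Zfp36 do not contain these letters, and the promoter of Egr1 was not analysed here. Whether the element has a part in the order of the mice was not tested.

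The vitamin D genes with known FGF23 responses differed in how well they were measured. Cyp27b1 (ENSMUSG00000006724, chr10:127048250-127053006) was at 14.2, 17.5, 21 and 13.9 CPM with vehicle and 9.54, 5.11, 14.1 and 2.73 CPM with FGF23. It was lower in Ad9, Ad10 and Ad12 than in any vehicle mouse, while Ad11 reached the low end of the vehicle range. The group means were 16.7 ± 3.32 and 7.86 ± 5.01 CPM (SD, n = 4 each), a log2 fold change of -1.09 (interval -1.82 to -0.37) that did not pass the test (adjusted p = 0.688 in edgeR). Raw counts of 58 to 261 in FGF23 mice and 329 to 429 in vehicle mice stood behind these values. With any 1 healthy mouse left out, the estimate ran from -1.52 to -0.81.

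Cyp24a1 (chr2:170482708-170497145) was at 35.2, 15.7, 42.1 and 61.1 CPM with vehicle and 25.6, 179, 29.99 and 59.4 CPM with FGF23. Ad10 alone lay above the vehicle range, and the other three lay inside it. The log2 fold change of 0.94 (interval -0.37 to 2.25) became -0.0042 without Ad10, so it rested on that mouse. Ad10 also had the highest summed urothelial and adipocyte markers, whose part in its Cyp24a1 level was not tested. The vitamin D receptor gene Vdr was at 226 to 270.2 CPM with vehicle and 242 to 287 CPM with FGF23. The endocytic receptor genes Lrp2 (megalin) and Cubn, which take up filtered vitamin D-binding protein, had log2 fold changes of 0.14 and 0.14. Dab2, the adaptor gene of megalin endocytosis, was at 499, 539, 518 and 531 CPM with vehicle and 651, 652, 615 and 505 CPM with FGF23, higher in Ad9, Ad10 and Ad11 and not in Ad12. Its log2 fold change was 0.21 (interval 0.01 to 0.42), and 0.05 with the inner medulla marker score as a term. Cyp27a1, Rxra, Amn and the calbindin gene S100g had estimates of 0.18, 0.08, -0.08 and -0.09. Of the 10 vitamin D genes tested, 1 was higher (Dab2) and 1 lower (Cyp27b1) at an unadjusted p below 0.05, with a median of 0.12.

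The main renal phosphate transporter genes were tightly bounded around no difference. Slc34a1, which encodes the proximal tubule cotransporter NaPi-IIa, was at 4266, 4808, 5059 and 4775 CPM with vehicle and 4922, 4862, 4629 and 3819 CPM with FGF23. Ad9, Ad10 and Ad11 lay within the vehicle range and Ad12 below it, giving a log2 fold change of -0.05 (interval -0.28 to 0.18), and of -0.21 with the inner medulla marker score as a term. Slc34a3, for NaPi-IIc, was at 95.1 to 113 CPM with vehicle and 93.9 to 119.8 CPM with FGF23, an estimate of 0.08 (interval -0.12 to 0.28). These are transcript levels and say nothing of cotransporter protein in the brush border. Slc34a2, for the cotransporter NaPi-IIb, was far less abundant, at 7.47, 12, 7.84 and 9.52 CPM with vehicle and 5.86, 5.94, 5.07 and 7.63 CPM with FGF23. Only Ad12, the FGF23 mouse with the highest inner medulla markers, reached the vehicle range, and the log2 fold change was -0.58 (interval -0.96 to -0.21, adjusted p = 0.688 in edgeR's test), or -0.42 with the inner medulla marker score as a term. Slc20a1 and Slc20a2 (PiT1 and PiT2) had estimates of 0.18 and -0.01, and the phosphate exporter gene Xpr1 of 0.10. The scaffold genes Slc9a3r1, Slc9a3r2, Pdzk1 and Pdzk1ip1 lay at -0.00, 0.04, -0.09 and 0.14, and the parathyroid hormone receptor gene Pth1r at -0.01. Of the 11 genes, Slc34a2 alone reached an unadjusted p below 0.05. For the other 10, the interval lay within ±0.5.

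Id4 (ENSMUSG00000021379, chr13:48261228-48266026) had the smallest p of all genes. It encodes an inhibitor of DNA binding, a helix-loop-helix protein that keeps basic helix-loop-helix factors from DNA, and genes of this family are targets of bone morphogenetic protein signaling. It was at 109.9, 88.3, 84.1 and 93.8 CPM with vehicle and 54.9, 54.4, 49.7 and 74.6 CPM with FGF23. Every FGF23 mouse was below every vehicle mouse, with Ad12 the closest. The means were 94 ± 11.3 and 58.4 ± 11.1 CPM (SD, n = 4 each), a log2 fold change of -0.69 (interval -0.92 to -0.46). Its adjusted p was 0.155 in edgeR, 1.14e-05 in DESeq2, 0.00966 in edgeR without a count filter and 0.00108 in edgeR without Ad12. That last fit leaves only FGF23 mice in which Slc14a2 was nearly absent, so treatment and inner medulla content cannot be told apart in it. With the inner medulla marker score as a term, the estimate was -0.59 (adjusted p = 0.455 in edgeR's test). Over all 18 alternatives the adjusted p ran from 1.14e-05 to 0.870, the latter without Ad11, and the estimate from -0.83 to -0.59.

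The other Id genes were looked at after these values were seen. Id1 was at 59, 52.8, 58.9 and 51.1 CPM with vehicle and 47, 32, 18.3 and 32 CPM with FGF23, without overlap, a log2 fold change of -0.78 (interval -1.30 to -0.25). Id3 was at 93, 85, 92.3 and 85.1 CPM with vehicle and 86.2, 56.2, 41.8 and 49.3 CPM with FGF23, where Ad9 reached the vehicle range (-0.60, interval -1.08 to -0.13). Id2 overlapped between groups, with an estimate of -0.21 (interval -0.51 to 0.10). The adjusted p-values in edgeR's test were 0.688 for Id1, 0.688 for Id3 and 0.83 for Id2, so none of these 3 passed.

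Of the other genes with the smallest p, those higher with FGF23 had small differences. They included Zmat3, Ccnd1, Nabp1, Gm16010, Wdfy3, Rbm15, Acaca, Gnpda1 and Rest, with log2 fold changes from 0.23 (Gnpda1) to 0.58 (Acaca). Of these, Gm16010 and Acaca overlapped between the groups. Nabp1, for a single-stranded DNA-binding protein, was at 55.8, 48.3, 54.4 and 50.5 CPM with vehicle and 64.7, 73.5, 66.5 and 60.9 CPM with FGF23, without overlap. Rbm15, which recruits the RNA m6A methylation complex, was at 19.9 to 22.1 CPM with vehicle and 24.6 to 27 CPM with FGF23. Wdfy3, an autophagy scaffold gene, was at 178 to 197 CPM with vehicle and 209.9 to 255 CPM with FGF23, and Rest, a repressor of neuronal genes, at 37.4 to 41.3 CPM with vehicle and 44.2 to 49.2 CPM with FGF23. Gnpda1, a glucosamine-6-phosphate deaminase gene, was at 89.6 to 93.6 CPM with vehicle and 98.7 to 113 CPM with FGF23. Gm16010 lies antisense to Spsb4, and since the strand setting of the counting was not stated, reads of the 2 genes cannot be told apart. Its level was 51.9 to 70.7 CPM with vehicle and 66.2 to 94.7 CPM with FGF23.

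Those lower with FGF23 were Id4, Gm20633, Pomt1, Hacl1, Uri1, Slc44a2, Acot3, Cck, Marc1 and Sorcs1. Pomt1, a protein O-mannosyltransferase gene, was at 47.9, 47.4, 49.1 and 47.6 CPM with vehicle and 41.2, 41.8, 39.6 and 42.7 CPM with FGF23, so that a log2 fold change of only -0.22 (interval -0.31 to -0.12) came without overlap. Uri1, a prefoldin-family chaperone gene, was at 52 to 55.4 CPM with vehicle and 39.4 to 47 CPM with FGF23, and the choline transporter-like gene Slc44a2 at 54.4 to 63.7 CPM with vehicle and 48.8 to 53.3 CPM with FGF23. Marc1, for a mitochondrial amidoxime-reducing enzyme, was at 5.71 to 7.54 CPM with vehicle and 2.48 to 3.96 CPM with FGF23. Cck, the cholecystokinin gene, had the lowest estimate of all genes at -3.54 (interval -5.36 to -1.77), from 0.769, 9.17, 1.57 and 5.21 CPM with vehicle and 0.286, 0.159, 0.432 and 0.565 CPM with FGF23. Its vehicle values were widely spread, with most of it in Ad2 and Ad4. Sorcs1 followed the same mice, at 0.256, 1.92, 0.392 and 0.931 CPM with vehicle and 0.0477, 0.277, 0.108 and 0.188 CPM with FGF23, with Ad10 and Ad1 overlapping. Gm20633, annotated as antisense and open to the same doubt on strand, was at 1.61 to 2.05 CPM with vehicle and 0.715 to 1.23 CPM with FGF23.

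Genes activated by the tumor suppressor p53 were higher more often than lower. Of 12 tested, 4 were higher (Zmat3, Eda2r, Cdkn1a and Bax) and 1 lower (Plk3) at an unadjusted p below 0.05, against 3.65% and 3.04% of all genes, and the median was 0.15 beside 0.00. Zmat3, for an RNA-binding zinc finger protein, was at 23.7, 25.4, 23.6 and 20.7 CPM with vehicle and 30.2, 26, 32.9 and 31.6 CPM with FGF23. All FGF23 mice were higher, Ad10 by the least (log2 fold change 0.37, interval 0.21 to 0.53). Eda2r, a receptor gene of the tumor necrosis factor receptor family, was at 1.03, 1.07, 0.735 and 1.14 CPM with vehicle and 1.67, 1.31, 1.46 and 2.12 CPM with FGF23, also without overlap (0.71, interval 0.31 to 1.11). Cdkn1a, the p21 inhibitor gene of cyclin-dependent kinases, was at 4.87, 6.44, 4.998 and 4.83 CPM with vehicle and 7.77, 5.39, 7.497 and 7.58 CPM with FGF23, where Ad10 lay inside the vehicle range (log2 fold change 0.41, interval 0.11 to 0.72). The proapoptotic gene Bax was at 16.2 to 19.2 CPM with vehicle and 18.9 to 20.5 CPM with FGF23 (0.18). Mdm2, which degrades p53 and is itself a strong p53 target, was at 42.3 to 46.4 CPM with vehicle and 44.1 to 50.2 CPM with FGF23, an estimate of 0.07 (interval -0.04 to 0.18). Plk3, a stress kinase gene, was at 35.4, 25, 37.2 and 39.2 CPM with vehicle and 24.1, 27.1, 25.7 and 24.2 CPM with FGF23, where Ad2 overlapped the FGF23 mice (log2 fold change -0.44, interval -0.81 to -0.06). In edgeR the adjusted p was 0.439 for Zmat3 and 0.688 for Cdkn1a, and none of the 12 passed.

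Several genes with small p act in lipid metabolism, none of which passed edgeR's adjusted test. Acot3, a peroxisomal acyl-CoA thioesterase gene, was at 124, 121, 184 and 133 CPM with vehicle and 94.9, 111, 55.1 and 73.3 CPM with FGF23. The groups did not overlap, Ad11 was lowest, and the log2 fold change was -0.74 (interval -1.10 to -0.38). The neighboring paralogs Acot1 and Acot2 had estimates of -0.47 and -0.44 with overlapping groups. Without Ad9 and Ad10 the estimates were -1.13 for Acot3, -0.78 for Acot1 and -0.70 for Acot2. Because the 3 genes are close copies on chromosome 12 and the handling of multi-mapped reads was not stated, their separate values are uncertain. Hacl1, a gene of peroxisomal alpha-oxidation, was at 37.1, 40.4, 51 and 43.8 CPM with vehicle and 31.9, 35.8, 30.7 and 29.6 CPM with FGF23 (-0.42, interval -0.61 to -0.24). Among 21 genes of fatty acid oxidation and ketogenesis, 0 were higher and 5 lower at an unadjusted p below 0.05, against 3.65% and 3.04% of all genes, 18 had a negative estimate, and the median was -0.11. Without single mice that median ran from -0.19 (without Ad10) to -0.043 (without Ad11), and the list's mean log2 CPM was lowest in Ad11, at 7.07 against 7.39 to 7.73 in the other healthy mice. The 5 were Acot1, Acot2, the carnitine palmitoyltransferase gene Cpt2, the carnitine-acylcarnitine carrier gene Slc25a20 and Hadha, a subunit gene of the mitochondrial trifunctional protein, at -0.24, -0.32 and -0.13 for the last 3. Pck1, the gluconeogenic phosphoenolpyruvate carboxykinase gene, was at 5531, 4987, 6375 and 5044 CPM with vehicle and 4341, 4525, 3278 and 3666 CPM with FGF23. These groups did not overlap, with Ad11 and Ad12 lowest (-0.47, interval -0.80 to -0.14, adjusted p = 0.688 in edgeR's test). Of the 10 gluconeogenesis and glucose transport genes, Pck1 was the 1 that was lower and Slc2a2, for the basolateral glucose transporter GLUT2, the 1 that was higher, at 183 to 216 CPM with vehicle and 207 to 255 CPM with FGF23.

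Acaca, which encodes acetyl-CoA carboxylase and commits carbon to fatty acid synthesis, was at 25.7, 19.95, 20.5 and 19.7 CPM with vehicle and 30.1, 42.1, 33.4 and 23.2 CPM with FGF23. Ad10 was highest, and Ad12 lay below the vehicle mouse Ad1 (0.58, interval 0.30 to 0.87, adjusted p = 0.495 in edgeR and 0.0428 in DESeq2). The fatty acid synthase gene Fasn, named after its values were seen, was at 138, 81.8, 112 and 72.2 CPM with vehicle and 181, 296, 149 and 98.5 CPM with FGF23, highest in Ad10 and Ad9 as the adipocyte markers were (log2 fold change 0.84). Thrsp, a lipogenic gene abundant in fat, was at 11.1, 1.74, 4.16 and 1.82 CPM with vehicle and 17.6, 43.7, 10.9 and 1.70 CPM with FGF23. With the adipocyte marker score as a term, the estimate for Acaca was 0.46, and the part of fat tissue in the other two was not tested. All 12 cholesterol genes had positive estimates, against 8185 of all 16020 genes. Of the 12, 4 were higher and 0 lower at an unadjusted p below 0.05, against 3.65% and 3.04% of all genes, and the median was 0.20. The list followed 1 mouse. The mean log2 CPM of its genes was 5.01, 4.74, 4.85 and 4.77 in Ad1 to Ad4 and 4.89, 4.83, 5.74 and 4.89 in Ad9 to Ad12, with Ad11 above the other 7 mice. Without Ad11 the median of the list was 0.02.

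Transport genes of the distal nephron showed small differences. Trpv6, an epithelial calcium channel gene, was at 2.97, 3.53, 2.45 and 3.39 CPM with vehicle and 1.62, 1.66, 1.67 and 2.73 CPM with FGF23, with only Ad12 in the vehicle range (log2 fold change -0.68, interval -1.08 to -0.29, and -0.60 with the inner medulla score as a term). Trpv5, the channel gene of the distal convoluted tubule, was at 19.4 to 25.1 CPM with vehicle and 14.6 to 24.9 CPM with FGF23 (0.06, interval -0.26 to 0.37). Slc8a1, for the sodium-calcium exchanger NCX1, was at 111, 118, 122 and 96.9 CPM with vehicle and 172, 109, 199 and 126 CPM with FGF23, above the vehicle range in Ad9 and Ad11, just above it in Ad12 and within it in Ad10 (log2 fold change 0.44, interval 0.11 to 0.76). Those were the 1 lower and 1 higher of 11 calcium and magnesium genes, with a median of 0.06. Of 18 sodium transport genes, 0 were higher and 3 lower at an unadjusted p below 0.05, against 3.65% and 3.04% of all genes (median -0.10). Among the 3 was Scnn1b, an ENaC subunit gene, at 61.4 to 66.6 CPM with vehicle and 51.9 to 60.1 CPM with FGF23. Another was the ubiquitin ligase gene Nedd4l, at 134 to 138 CPM with vehicle and 117 to 141 CPM with FGF23. The interval lay within ±0.5 for 16 of the 18. Slc12a3, the thiazide-sensitive cotransporter gene, was at 757 to 931 CPM with vehicle and 739 to 995 CPM with FGF23 (-0.03, interval -0.26 to 0.21). Aqp4, a water channel gene of the medullary collecting duct, was lower in all FGF23 mice, at 103, 96.9, 83.5 and 70.7 CPM with vehicle and 53.8, 39.98, 53.6 and 58.2 CPM with FGF23 (-0.79, interval -1.40 to -0.17). It belongs to the inner medulla markers above, yet it was as low in Ad12 as in Ad9 and Ad11. Of the 8 aquaporin and vasopressin receptor genes, 1 was higher (Aqp7) and 2 lower (Aqp4 and Aqp6), and the median was -0.09. Ren1, the renin gene, was at 92.7, 117, 156 and 135 CPM with vehicle and 226, 142, 247 and 157 CPM with FGF23, above the vehicle range in Ad9 and Ad11, at its top in Ad12 and within it in Ad10 (log2 fold change 0.62, interval 0.13 to 1.12, adjusted p = 0.688 in edgeR's test). With the inner medulla marker score as a term the estimate was 0.37. It was the 1 higher of 7 renin-angiotensin genes, whose median was 0.01.

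Inflammatory genes showed few differences in healthy kidney. Of 29 interferon-gamma-type genes, 0 were higher and 0 lower at an unadjusted p below 0.05 in edgeR, and the median was 0.06. DESeq2 called none of them, and the interval lay within ±1 for 26. Irf1, a transcription factor gene induced by interferon-gamma, was at 20.1 to 25.4 CPM with vehicle and 20.01 to 24.6 CPM with FGF23 (0.00, interval -0.31 to 0.32). The GTPase genes Tgtp1 and Tgtp2, near-identical copies whose split is uncertain, had estimates of 0.08 and 0.01. Among 22 type I interferon genes, 2 were higher (Cmpk2 and Mx1) and 0 lower, with a median of 0.03. Cmpk2, a mitochondrial nucleotide kinase gene, was at 11.5 to 14 CPM with vehicle and 13.3 to 15.8 CPM with FGF23. NF-kB and cytokine genes numbered 23 tested, 1 higher (Il22ra1) and 1 lower (Nfkbia), with a median of 0.01. Il22ra1, a receptor chain gene for interleukin-22, was at 2.01, 2.51, 2.01 and 1.86 CPM with vehicle and 2.91, 3.37, 2.86 and 2.92 CPM with FGF23, without overlap (0.53, interval 0.16 to 0.89). Nfkbia, the inhibitor gene of NF-kB, was at 37.4, 34.5, 33.1 and 45 CPM with vehicle and 30.04, 30.6, 22.9 and 31 CPM with FGF23, also without overlap, with Ad11 apart from the other FGF23 mice (-0.39). The adhesion gene Vcam1 and the factor gene Cebpb had estimates of 0.13 and 0.04. Il6 had 0 raw counts in all 8 libraries, and Tnf had at most 5.

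Among complement, injury, matrix and immune cell genes, C3 stood out. C3, the central complement gene, was at 344, 369, 359 and 368 CPM with vehicle and 242, 266, 265 and 332 CPM with FGF23. All FGF23 mice were lower, Ad12 being the closest (log2 fold change -0.38, interval -0.65 to -0.12, adjusted p = 0.688 in edgeR's test), and the estimate was -0.23 with the inner medulla marker score as a term. Of 9 acute-phase and complement genes tested, 0 were higher and 2 lower (C3 and Fga), against 3.04% of all genes lower, with a median of 0.11 that ran from -0.27 (without Ad9) to 0.18 (without Ad10). None of 14 tubular injury genes reached an unadjusted p below 0.05, the kidney injury molecule gene Havcr1 being at 73.8 to 163 CPM with vehicle and 85.3 to 96.4 CPM with FGF23 and Lcn2 at 1.22 to 2.91 CPM with vehicle and 0.832 to 2.17 CPM with FGF23. Their median was -0.14, and -0.28 without Ad1. None of 24 collagen and matrix genes did either, although 21 had positive estimates, against 8185 of all 16020 genes, and the median was 0.18. Fbn1, the fibrillin gene, was at 9.12, 8.95, 12.7 and 11.3 CPM with vehicle and 22.4, 12.8, 15.1 and 8.24 CPM with FGF23, and Pdgfrb, a pericyte receptor gene, at 37.6 to 64.7 CPM with vehicle and 35.9 to 72.7 CPM with FGF23. Leaving out single mice moved the matrix median from 0.02 (without Ad9) to 0.35 (without Ad12). The pan-leukocyte gene Ptprc (CD45) was at 9.17 to 12.2 CPM with vehicle and 9.30 to 12.2 CPM with FGF23 (0.04, interval -0.23 to 0.31), and the macrophage gene Adgre1 (F4/80) at 4.15 to 5.20 CPM with vehicle and 4.002 to 5.24 CPM with FGF23 (-0.03, interval -0.32 to 0.26). The 8 macrophage markers had a median of 0.04, the 6 tested T and NK cell markers of -0.43 and the 6 B and plasma cell markers of -0.46, with 0, 0 and 1 of them lower at an unadjusted p below 0.05. The T and NK cell median was -0.16 without Ad1. All of these lymphocyte markers but Ighm had group means under 3 CPM. Of 5 neutrophil markers, S100a9 alone was tested, at 0.381 to 0.637 CPM with vehicle and 0.236 to 1.23 CPM with FGF23.

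Among the remaining lists, the core clock had 20 genes, 0 higher and 2 lower at an unadjusted p below 0.05, and a median of -0.01. Cry1, a clock repressor gene, was at 18.3, 20.3, 19.99 and 19 CPM with vehicle and 14.5, 15.1, 15.2 and 15.8 CPM with FGF23. The groups did not overlap, and the log2 fold change was -0.35 (interval -0.59 to -0.12). The glucocorticoid-induced genes (17) had 0 higher and 1 lower, Dusp1, and a median of -0.08, while Fkbp5 reached 118 CPM in Ad11 against 34.9 to 54.9 CPM with vehicle. In the unfolded protein response (18 genes), 2 were higher (Sdf2l1 and Asns) and 2 lower (Dnajb9 and Chac1), with a median of 0.06. Sdf2l1, an endoplasmic reticulum chaperone gene, was at 4.58, 4.79, 5.24 and 4.15 CPM with vehicle and 5.82, 5.67, 9.65 and 5.51 CPM with FGF23, again highest in Ad11. The 16 oxidative stress genes had 0 higher and 0 lower with all intervals within ±0.5, and the 20 oxidative phosphorylation genes had 1 higher (Atp5o, 0.10) with all intervals within ±0.5. Organic ion transporter genes (11 tested) had 0 in either direction and a median of -0.01, with the urate transporter gene Slc22a12 at -0.39. Of 8 iron and heme genes, 1 was higher and 2 lower (median 0.03), the heme synthesis gene Alas1 again reaching 293 CPM in Ad11 against 122 to 145 CPM with vehicle. Trim63, a muscle-type ubiquitin ligase gene called without Ad12, was at 3.70, 3.04, 3.14 and 3.34 CPM with vehicle and 6.39, 6.26, 6.63 and 3.30 CPM with FGF23, with Ad12 at the vehicle level (0.77).

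None of the 6 early and 5 late proximal tubule, 5 thick ascending limb, 4 distal convoluted tubule, 5 principal cell, 5 intercalated cell, 6 podocyte, 8 endothelial or 6 fibroblast and smooth muscle markers reached an unadjusted p below 0.05. Their medians were 0.05, -0.11, -0.09, 0.02, -0.09, 0.16, 0.07, 0.03 and 0.20 in that order. With single mice left out, the median of the fibroblast and smooth muscle markers ran from -0.062 (without Ad10) to 0.38 (without Ad12). The 5 inner medulla markers had a median of -0.67 (-1.28 without Ad12), with 1 lower at an unadjusted p below 0.05, against 3.04% of all genes. The 6 adipocyte markers had a median of 2.58 (3.90 without Ad1), with 4 higher, against 3.65% of all genes. The 5 urothelium markers had a median of -0.21, which ran from -5.003 (without Ad10) to 0.19 (without Ad12) and was also positive without Ad2, Ad9 or Ad11. Erythroid genes, a measure of blood left in the tissue, summed to 145, 223, 225 and 137 CPM with vehicle and 167, 118, 72.2 and 122 CPM with FGF23. The groups overlapped, with Ad11 lowest. Of the erythroid genes, 4 of 5 were lower at an unadjusted p below 0.05, against 3.04% of all genes (median -0.62). The list is Hbb-bs, Hbb-bt, Hba-a1, Hba-a2 and Alas2, mostly globin genes that are close copies, so its members are not independent measures. Lists of foreign tissue held few measurable genes. Of 6 adrenal cortex, 5 skeletal muscle and 6 pancreas markers, 2, 1 and 0 were abundant enough to test, with a median of 0.16 for the first and an estimate of -0.15 for the second. Of 6 hepatocyte markers, 4 were tested, with a median of -0.74 that was -0.093 without Ad2. Among these were Apoa1, an apolipoprotein gene, at 0.732, 3.04, 0.294 and 0.339 CPM with vehicle and 0.238, 0.159, 0.0539 and 0.0471 CPM with FGF23, and Ttr, the transthyretin gene, at 30.9, 24.5, 21.2 and 19.1 CPM with vehicle and 37.1, 26.6, 61.3 and 45.7 CPM with FGF23. Only Ad10 overlapped the vehicle mice for Ttr, and the log2 fold change was 0.83 (interval 0.29 to 1.37).

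The FGF23 effect in healthy mice was next set against that in the 8 Adriamycin mice of the same experiment, which were given Adriamycin in place of saline and the same single injection of FGF23 or vehicle. No gene's effect differed between the settings at an adjusted p of 0.05 in the interaction term of edgeR's test: 0 of 16020 (0%), with a smallest adjusted p of 0.268. At an unadjusted p below 0.05, the effect was more positive in Adriamycin kidney for 352 genes (2.20%) and more negative for 467 (2.92%). DESeq2 called 4 genes, Cebpb, Dclre1b, Plk3 and Arrdc2. Within Adriamycin mice alone, edgeR called 6 genes.

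Cebpb, a transcription factor gene of inflammation and metabolism, was at 15, 9.53, 13.2 and 11.2 CPM with vehicle and 15.6, 11.5, 9.60 and 13.6 CPM with FGF23 in healthy mice, with the groups overlapping (0.04, interval -0.34 to 0.42). The means in Adriamycin mice were 13 and 35.5 CPM, and the interaction was 1.42 (interval 0.89 to 1.95, adjusted p = 0.278 in edgeR's test). Dclre1b, a telomere and DNA repair nuclease gene, was at 10.3 to 12.9 CPM with vehicle and 10.2 to 11.4 CPM with FGF23 in healthy mice, and its interaction was 0.65 (interval 0.42 to 0.87). For Arrdc2, an arrestin-domain gene, the healthy estimate was -0.10 and the interaction 1.04. In 4 genes the healthy and Adriamycin estimates had opposite signs: Plk3 at -0.44 and 0.85, the circadian deadenylase gene Noct at -0.58 and 1.41, Il22ra1 at 0.53 and -0.78, and Eda2r at 0.71 and -0.51. Their interactions were 1.29, 1.99, -1.31 and -1.22, with adjusted p-values from 0.339 to 0.515 in edgeR.

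The leading genes of healthy kidney had estimates close to 0 in Adriamycin kidney. Id4 had means of 87.4 CPM with vehicle and 85.4 CPM with FGF23 there (log2 fold change -0.03), and the interaction was 0.65 (interval 0.33 to 0.98, adjusted p = 0.528 in edgeR's test). For Ccnd1, Zmat3 and Acot3 the Adriamycin estimates were 0.01, 0.01 and -0.09, and the interactions -0.46, -0.36 and 0.65. These 4 genes were selected for their healthy difference, which enters the interaction too. Cyp27b1 had means of 5.001 CPM with vehicle and 5.50 CPM with FGF23 in Adriamycin mice, and its interaction was 1.23 (interval 0.16 to 2.30). Cyp24a1 had means of 68.8 and 23.6 CPM in Adriamycin mice and an interaction of -2.49 (interval -4.38 to -0.60), which again draws on Ad10. Kl and Slc34a1 had interactions of -0.06 and 0.13. Glucocorticoid-induced genes had a median interaction of 0.48, with 7 of 17 more positive in Adriamycin kidney at an unadjusted p below 0.05, against 2.20% of all genes. None of the 17 passed adjustment. The list's mean log2 CPM was 5.84, 5.75, 6.11 and 5.93 in Adriamycin mice with vehicle and 6.08, 6.53, 6.34 and 6.01 with FGF23. In healthy mice it was 5.64 to 5.98 with vehicle and 5.56 to 5.80 with FGF23.

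Repeated dosing was available in another experiment: 7 healthy male C57BL/6 mice, 4 given vehicle and 3 given 1 µg FGF23 intravenously every day for 6 days. Strain, sex, number of injections and experiment all differ, so the values stand side by side without a test of the difference. There edgeR called 0 of 15151 genes (0%), with a smallest adjusted p of 0.725, and at an unadjusted p below 0.05, 401 were higher (2.65%) and 577 lower (3.81%). DESeq2 called 14, whereas the paper, which also used DESeq2, reported no differentially expressed genes in this comparison. It fitted disease and treatment together and adjusted over its contrasts combined, while here the 7 libraries were fitted alone. Id4 had a log2 fold change of 0.38 (interval -0.37 to 1.13) after 6 days beside -0.69 after 1 injection, and Ccnd1 of -0.15 (interval -0.40 to 0.10) beside 0.47. Cyp27b1 was at -0.15 (interval -1.38 to 1.08) beside -1.09, and Cyp24a1 at -0.20 (interval -1.83 to 1.43) beside 0.94. Kl was at -0.26 beside 0.15, and Slc34a1 and Slc34a3 at -0.11 and -0.28 beside -0.05 and 0.08. The intervals of Cyp27b1 and Cyp24a1 after 6 days spanned more than 2 log2 units and include their estimates of the single injection. That of Dab2, at -0.24 (interval -0.44 to -0.04), did not include its estimate of 0.21.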

How the data were processed

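RNA was extracted from a fragment of the renal pars intermedia of each mouse with an RNeasy kit, libraries were made with the Illumina TruSeq Stranded mRNA ligation kit, and 58 bp paired-end reads were produced on a NextSeq 2000. According to the submitters' processing notes, bcl2fastq 2.20.0 and FastQC 0.11.8 preceded alignment with STAR 2.7.9a to GRCm38, and featureCounts 1.5.1 counted reads per gene. The authors used Ensembl release 102 and deposited raw read counts per gene without normalization. Multi-mapping and strand settings are not given in the sources used here. The table held 55487 genes, 55141 of them with a symbol, and 0 columns could not be assigned to a group. Columns name the treatment group but not the individual sample record, so mice are called by their column (Ad1 to Ad16).

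Counts of the 16 BALB/c libraries were fitted in 1 model of 4 groups (12 residual degrees of freedom) with edgeR 4.0.16 in R 4.3.3, TMM normalization, filterByExpr with a minimum count of 10 and the quasi-likelihood F test. P-values were adjusted over all tested genes by the Benjamini-Hochberg method, with a threshold of 0.05. Intervals are 95% intervals of the fitted log2 fold change, and CPM used TMM library sizes. DESeq2 1.42.0 was an alternative. The 7 C57BL/6 libraries were fitted separately. The pipeline was tested on simulated counts. The 26 pathway and 22 marker lists, and the mice described, were chosen with earlier results of these data known. Named genes were all members of the receptor, MAPK feedback, vitamin D and phosphate lists, the 10 smallest p in each direction, the 2 smallest p of each other list, genes named by the study, the 10 most variable genes at 10 CPM or more and the 10 smallest interaction p. All other genes named in the text were chosen after their values were seen. Marker lists were compared as the mean log2 CPM (prior count 2) and the summed CPM. The main fit did not use the numbers in the column names to pair mice. Results of some genes are not reported here.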

Additional observations from a re-analysis of the deposited data

Results flagged for a closer look

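In 178 groups of 4 mice, 1 value stood apart from the other 3 by Dixon's criterion in 15. Most groups came from genes and lists chosen with earlier results of these data known, and some lists share genes. The count therefore cannot be set against the 1 in 20 that chance alone gives. Ad12 gave 4 of the 15 values and Ad11 3. Ad11 was high for Slc20a1 (41.7 CPM) and the cholesterol genes (mean log2 CPM 5.74), and low for Nfkbia (22.9 CPM). Ad12 stood apart from the other FGF23 mice for Trpv6 (2.73 CPM), Trim63 (3.30 CPM), the phosphate transport genes (mean log2 CPM 7.45) and the podocyte markers (mean log2 CPM 5.82). Among vehicle mice, Ad1 was apart for Acaca (25.7 CPM), the macrophage markers (mean log2 CPM 3.90) and the T and NK cell markers (mean log2 CPM 0.25). Ad2 was apart for Cdkn1a (6.44 CPM) and Il17rd (16.4 CPM), and Ad3 for the urothelium markers (mean log2 CPM -1.90). Ad10 was low for Cdkn1a (5.39 CPM) among FGF23 mice and high for the urothelium markers (mean log2 CPM 2.48).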

How the results depend on the processing

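In healthy BALB/c kidney, the number of genes called went from 0 to 1 without a count filter (Id4) and to 16 with DESeq2, and ran from 0 to 4 with single mice left out, the 4 coming without Ad12. With RLE normalization, 10 counts required in every library, robust empirical Bayes, the 8 healthy libraries alone or an adjusted threshold of 0.1, the count was 0. With single mice left out, genes higher at an unadjusted p below 0.05 numbered 454 to 911 and lower genes 349 to 1011, with both highest counts without Ad12. For the difference between Adriamycin and healthy kidney, calls numbered 1 without a count filter (Cebpb), 4 with DESeq2 and 0 to 1 with single mice left out, where the 1, Cry1, came without Ad16. After 6 days, DESeq2 called 14 genes, and leaving out single mice gave 0 throughout. Of 40 genes followed in 18 alternatives, 34 kept their sign in all of them. The others were Fgfr1 (-0.092 to 0.013 on the log2 scale with single mice left out), Egr1 (-0.90 to 0.33), Cyp24a1 (-0.0042 to 1.25), Slc34a1 (-0.10 to 0.024), Slc34a3 and Kl. Fits chosen after seeing the data left out Ad9 and Ad10 together or added a marker score or the rank of the column number within its group as a term. Without both mice Egr1 was at 0.20, beside -0.28 with the column rank as a term, and Slc34a3 was at -0.014. With the inner medulla score Slc34a3 was at -0.053 and Kl at -0.0095. The cause of these shifts was not tested. These 4 fits called 0 genes each, with 798 higher and 706 lower without Ad9 and Ad10, 545 and 466 with the inner medulla score, 529 and 436 with the adipocyte score, and 500 and 406 with the column rank at an unadjusted p below 0.05. No paired analysis was possible because the columns could not be matched to the replicate numbers of the labels. Across genes, healthy mice of the same column rank showed little shared deviation from their group means, with correlations from -0.090 to 0.096 in the 4 healthy pairs. These correlations do not describe single genes, and Egr1, Fos, Junb and Btg2 followed the column number in every BALB/c group.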

Other observations

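The chaperone gene Hspa5 was at 573 CPM in 1 FGF23 mouse, Ad11, against 313 to 369 CPM in the 4 vehicle mice, and at 358, 294 and 313 CPM in the other FGF23 mice. Srebf1, a lipogenic transcription factor gene named like Hspa5 after its values were seen, was higher in all FGF23 mice than in any vehicle mouse, at 52.9, 53.3, 42.2 and 46.9 CPM with vehicle and 65.1, 56.9, 115 and 58.9 CPM with FGF23 (log2 fold change 0.60, interval 0.21 to 0.98).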
